A study of Mus musculus with 8 samples.

Results

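Cell cycle and DNA replication genes were examined in the spinal cord of mice with experimental autoimmune encephalomyelitis (EAE), an immune disease of the central nervous system that is used as a model of multiple sclerosis. The members were the probe sets of the Affymetrix MG U74Av2 array, a set of short probes for each transcript, whose gene symbol belongs to the Mcm, Orc, Rfc and DNA polymerase families, the cyclins, the cyclin-dependent kinases, the Cdc, Plk, Aurk, Bub, Mad2, Cenp and E2f genes, or is Pcna, Top2a, Mki67, Tyms, Tk1, Lig1, Prim1, Prim2, Rrm1, Rrm2, Rrm2b, Cks1b or Cks2. Cdc42 and its relatives, which are not cell cycle genes, were left out. This rule gave 137 probe sets of 101 genes, out of 12422 probe sets and 8251 named genes, and 32 of the member genes had several probe sets. All 137 were tested, since no filter on low values was applied.

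The EAE group held 5 arrays and the control group 3, and each array carried the pooled RNA of 2 female SJL/J mice, an inbred wild-type strain in which no gene was altered. The mice were 8 to 12 weeks old. EAE was induced with a PLP (proteolipid protein) peptide placed under the skin of the flank in complete Freund's adjuvant, with pertussis toxin. The average EAE grade was 2.5 on every EAE array. EAE mice were killed on day 14 (EAE arrays 1 and 4), between days 12 and 14 (EAE array 2), on day 17 (EAE array 3) and on day 15.5 (EAE array 5). Controls had vehicle alone and were killed on the same days. Murine serum albumin was also injected into a vein of the EAE mice 3 hours before they were killed, no such injection is named for controls, and its effect cannot be told apart from that of EAE. All mice were perfused before the whole cord was taken. The numbers 1 to 3 also name batches that held an EAE and a control array each, and the fold changes below were fitted within them, so that EAE arrays 4 and 5, alone in their batches, added nothing to a fold change.

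A cell that divides passes through phases in a fixed order. In G1 the Mcm helicase is loaded at origins, and the D cyclins and the E2F factors open the way to S phase, in which the helicase is switched on and unwinds the DNA for polymerases held by the sliding clamp Pcna. Cyclins A and B with Cdk1 then drive the cell into mitosis, and the spindle checkpoint holds it there until Cdc20 lets the anaphase-promoting complex act. In the healthy adult spinal cord few cells divide, mainly oligodendrocyte progenitors and some glial and vessel cells, whereas in EAE microglia proliferate and blood leukocytes enter. Many symbols of these families belong to proteins with other work, such as the neuronal kinase Cdk5 and the kinases of the transcription machinery.

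Promoters of 6 members are shown first because the letters that E2F factors and the mitotic regulator complexes read lie close to the start of such genes. Each line gives the 200 bases before the start from RefSeq (GRCm38.p6), read 5′ to 3′ on the strand of the gene. Capitals mark the E2F letters, the cell cycle homology region (CHR) and the CCAAT box on either strand. Cdc20, Cks1b and Top2a were higher in EAE and hold CHR letters, Cdk1 holds E2F and CHR letters, Mcm5 holds E2F letters alone besides CCAAT, and Cdk14, the gene with the greatest fall outside the core cell cycle, holds none of them.
Cdc20 (chr4:118437344-118437543, strand minus): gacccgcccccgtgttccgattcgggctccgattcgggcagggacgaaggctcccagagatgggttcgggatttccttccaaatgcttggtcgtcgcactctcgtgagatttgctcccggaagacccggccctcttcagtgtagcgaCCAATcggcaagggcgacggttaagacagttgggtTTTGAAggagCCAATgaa
Cks1b (chr3:89418292-89418491, strand minus): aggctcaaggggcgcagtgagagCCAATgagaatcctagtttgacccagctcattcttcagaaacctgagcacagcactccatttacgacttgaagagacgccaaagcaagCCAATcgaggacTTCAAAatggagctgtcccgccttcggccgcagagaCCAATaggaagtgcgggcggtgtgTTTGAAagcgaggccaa
Top2a (chr11:99024190-99024389, strand minus): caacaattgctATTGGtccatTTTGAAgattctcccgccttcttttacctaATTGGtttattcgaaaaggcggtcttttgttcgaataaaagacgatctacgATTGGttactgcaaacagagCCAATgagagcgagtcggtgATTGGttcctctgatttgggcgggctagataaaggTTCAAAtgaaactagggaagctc
Cdk1 (chr10:69352913-69353112, strand minus): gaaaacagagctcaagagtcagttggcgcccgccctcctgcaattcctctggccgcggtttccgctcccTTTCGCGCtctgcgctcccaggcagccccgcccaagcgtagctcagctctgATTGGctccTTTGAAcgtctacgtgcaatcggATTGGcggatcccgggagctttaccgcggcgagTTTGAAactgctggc
Mcm5 (chr8:75109309-75109508, strand +): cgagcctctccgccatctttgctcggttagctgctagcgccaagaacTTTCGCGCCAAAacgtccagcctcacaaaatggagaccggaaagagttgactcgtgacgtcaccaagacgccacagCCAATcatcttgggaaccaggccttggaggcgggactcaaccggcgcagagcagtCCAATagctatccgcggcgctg
Cdk14 (chr5:5380252-5380451, strand minus): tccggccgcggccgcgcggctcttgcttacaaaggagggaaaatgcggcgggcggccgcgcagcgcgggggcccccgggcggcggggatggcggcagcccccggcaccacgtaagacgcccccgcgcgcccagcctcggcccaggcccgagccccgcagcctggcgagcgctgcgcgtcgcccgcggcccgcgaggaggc

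Of the 101 member genes, 87 had a promoter in the RefSeq table (250 bases before the start and 50 after it). A gene with several promoters was counted once, as holding the letters if any of its promoters did. The E2F search used TTTCCCGC as well as TTTCGCGC together with TTTGCCGC and with TTTGGCGC, the CHR search used TTTGAA, and the third search used CCAAT, each on both strands with overlaps counted. E2F letters lay in promoters of 19 of the 87 member genes (21.8%) against 2.6% of the 27025 genes in the table. CHR letters lay in 18 (20.7%) against 20.2%, and CCAAT in 52 (59.8%) against 41.1%. E2F letters were found in 6 of 13 origin genes (46.2%) and 7 of 20 of the replication fork (35%). They were found in 0 of 21 of the members with other roles. CHR letters were found in 6 of 8 genes of S, G2 and entry into mitosis (75%), all 8 of which also held CCAAT. Among the members with other roles CHR letters were found in 1 of 21 (4.76%). In Cdc20 the CHR letters lay at positions -18 to -13 from the start. In Mcm5 a pair of overlapping E2F matches on opposite strands lay at -153 to -146 and at -149 to -142. By call, E2F letters lay in promoters of 2 of the 13 genes with a higher probe set (15.4%). They lay in 1 of 10 with a lower one (10%) and in 16 of 64 that did not pass (25%). For CHR the counts were 5 (38.5%), 1 (10%) and 12 (18.8%) in this order. For CCAAT they were 12 (92.3%), 4 (40%) and 36 (56.2%). The 6 promoters printed above are picked examples and do not stand for these shares. A match is a run of letters and not a measured binding site.

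As a whole the families did not move one way. At an adjusted p under 0.05 in limma's moderated linear model, with the adjustment over all 12422 probe sets, 16 of the 137 member probe sets were higher in EAE (11.7%), where 8.26% of all probe sets were, and 13 were lower (9.49%), where 11.4% of all were. The other 108 did not pass. The median log2 fold change of the members was -0.01, and that of all probe sets was -0.05. By genes, each read from its brightest probe set, 13 of 101 were higher and 11 lower, where 9.19% and 13.5% of all genes were. Every EAE array lay above every control array for 25 member probe sets (18.2%), against 10.9% of all probe sets, and below for 13 (9.49%), against 15.1%. Both shares of calls were near the background. Changes were small: 2 member probe sets rose at least 2-fold, those of Mki67 and Ccnb2, and 0 fell by as much. By mean signal over the arrays, 7 of the 16 higher and 10 of the 13 lower lay above the median of all probe sets (6.12).

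**Figure D1:**
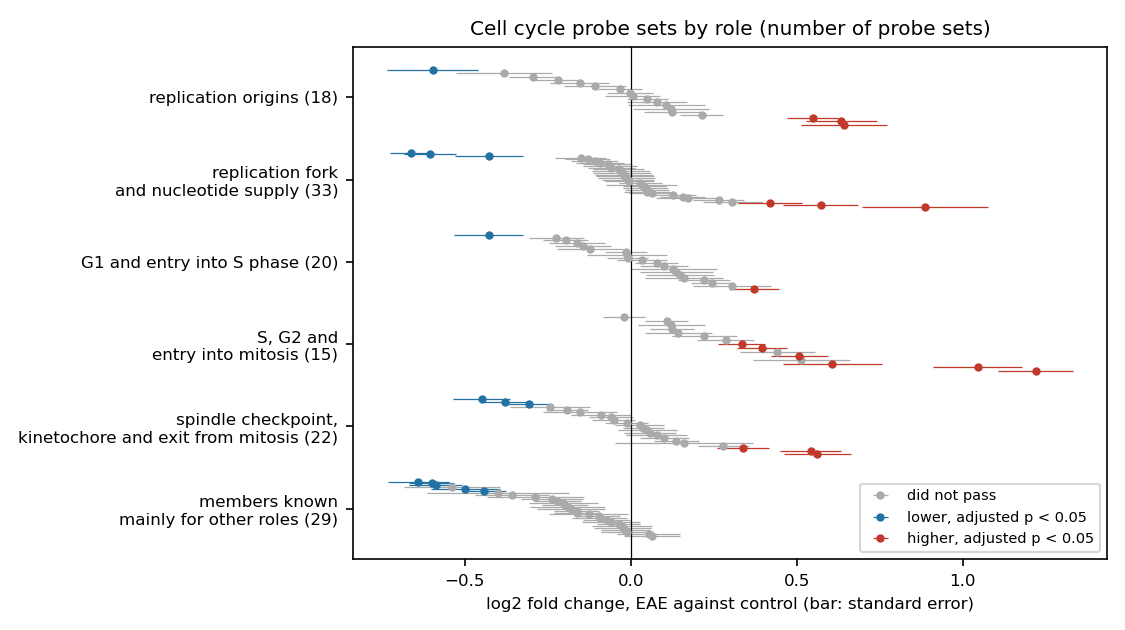
The x axis is the log2 fold change of EAE against control of each of the 137 member probe sets, with bars for the standard error, and the y axis groups them by role, with the number of probe sets in parentheses. Red points passed upwards, blue points downwards and grey points did not pass. In S, G2 and entry into mitosis 14 of 15 points lie above 0, and the members known mainly for other roles hold 5 of the 13 blue points and no red point.

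The genes of S, G2 and entry into mitosis were the group with most probe sets called higher, 6 of 15, with 0 lower (also 0 lower at an unadjusted p under 0.05, and 9 higher). Their median log2 fold change was 0.33. Of all 12422 probe sets 8.26% were higher and 11.4% lower (1498 and 2587 at an unadjusted p under 0.05 in limma). The roles were chosen with earlier results of these data known, so this ranking is a description and not a test. Ccnb2, cyclin B2, a partner of Cdk1 at entry into mitosis, had log2 signals of 7.61, 7.26, 6.76, 7.33 and 7.17 on EAE arrays 1 to 5 and of 6.26, 6.18 and 6.05 on control arrays 1 to 3. The groups did not overlap, and EAE array 3 lay nearest the controls. The log2 fold change was 1.05 (SE 0.134, adjusted p = 0.00881), or 2.06-fold, and the differences within batches 1, 2 and 3 were 1.35, 1.08 and 0.70. Ccna2, cyclin A2, which acts in S phase and G2, had 7.71, 7.41, 7.53, 7.42 and 7.42 in EAE and 7.19, 7.12 and 7.16 in controls. Here EAE array 1 stood above the other EAE arrays, all of which were clear of the controls, and the log2 fold change was 0.40 (SE 0.0757, adjusted p = 0.0252).

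Aurkb, the kinase of the chromosomal passenger complex that corrects the attachment of chromosomes, had 6.52, 6.42, 6.16, 6.29 and 6.31 in EAE and 5.89, 5.85 and 5.83 in controls. Its log2 fold change was 0.51 (SE 0.0858, adjusted p = 0.0184), and the groups did not overlap. The small proteins that bind cyclin-dependent kinases rose as a pair: Cks1b by 0.61 (SE 0.150, adjusted p = 0.0491) and Cks2 by 0.33 (SE 0.0705, adjusted p = 0.0326). Cks1b was at 6.15, 6.44, 5.75, 5.83 and 6.22 in EAE and at 5.60, 5.44 and 5.49 in controls. EAE arrays 3 and 4 lay nearest the controls. Cdk1 itself, the kinase of mitosis, did not pass (log2 fold change 0.51, SE 0.146, adjusted p = 0.0713). Its EAE values were 6.15, 5.97, 5.44, 5.92 and 5.81 and its control values 5.34, 5.36 and 5.33. All EAE arrays were above all controls, but EAE array 3 differed from its control by 0.11 where arrays 1 and 2 differed by 0.81 and 0.61. The remaining genes of this group, Aurka, Ccna1, Cdc25c and Plk1, had log2 fold changes from -0.02 to 0.29 over their 7 probe sets, and none of the 7 passed.

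Mki67, the Ki-67 protein by which dividing cells are stained, had the greatest rise of all members on the dimmer of its probe sets, with 6.32, 5.89, 5.52, 6.25 and 5.77 in EAE and 4.90, 4.58 and 4.59 in controls. The log2 fold change there was 1.22 (SE 0.112, adjusted p = 0.00359), or 2.33-fold. On the brighter probe set it was 0.44 (SE 0.112, adjusted p = 0.0535), which did not pass, and there too the groups did not overlap. Both probe sets thus had the same direction and differed in size.

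**Figure D2:**
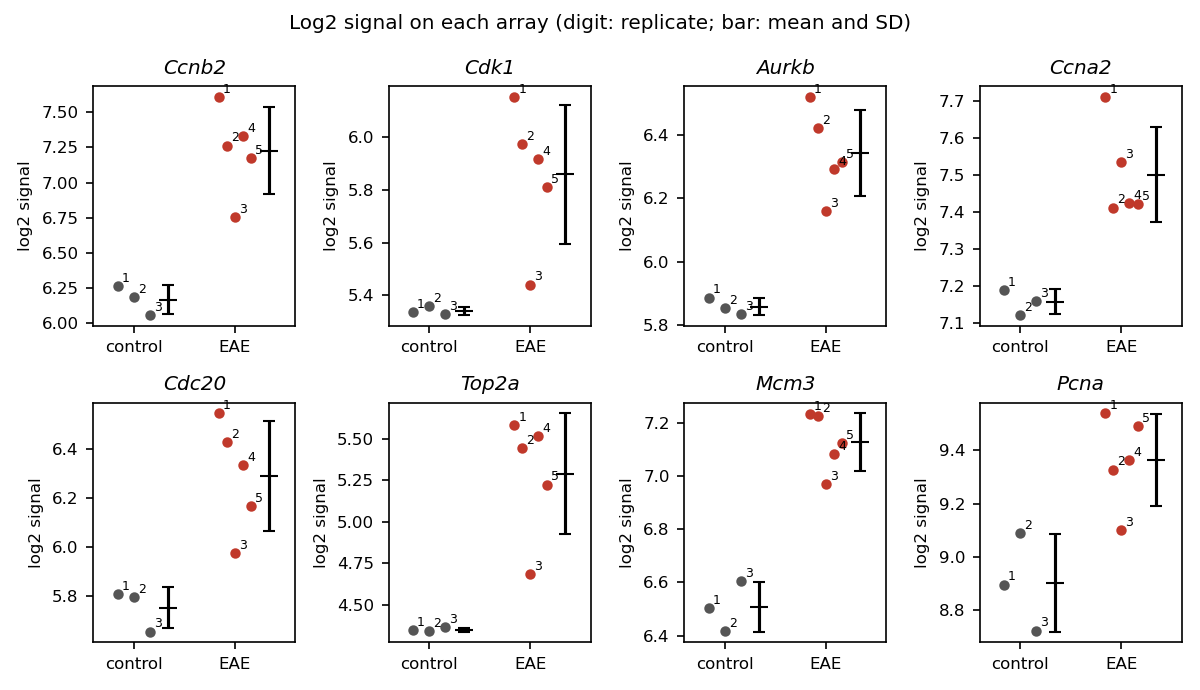
Each panel gives the log2 signal (y axis, its own range in each panel) of the brightest probe set of a gene on the 3 control arrays in grey and the 5 EAE arrays in red, with the replicate number beside each point and the mean and SD as a bar. In all 8 panels the groups do not overlap, and in all but Ccna2 EAE array 3 is the lowest EAE array. The 8 genes are picked examples with higher signals in EAE. Of the 137 member probe sets 25 had every EAE array above every control array (18.2%), against 10.9% of all probe sets, and 99 overlapped.

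In the spindle checkpoint, kinetochore and exit from mitosis 3 of 22 probe sets were higher and 3 lower, where 8.26% and 11.4% of all were. Cdc20, the activator of the anaphase-promoting complex, had 6.54, 6.43, 5.98, 6.33 and 6.17 in EAE and 5.81, 5.80 and 5.66 in controls. All EAE arrays were above all controls, and the log2 fold change was 0.56 (SE 0.100, adjusted p = 0.0211). Mad2l1, the checkpoint protein that holds Cdc20, had 7.79, 7.41, 7.10, 7.28 and 7.29 in EAE and 7.03, 6.95 and 6.69 in controls, a log2 fold change of 0.54 (SE 0.0923, adjusted p = 0.0188). Bub1, a checkpoint kinase, rose by 0.34 on its brightest probe set (SE 0.0782, adjusted p = 0.0416), while its other probe sets, with mean log2 signals of 4.02 and 3.76 in EAE, had 0.10 and 0.05 and did not pass.

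The members of this role that fell belong to the anaphase-promoting complex and to centromeres. Cdc23, a subunit of the anaphase-promoting complex, had 5.69, 5.83, 5.65, 5.95 and 5.81 in EAE and 6.10, 6.14 and 6.28 in controls, with a log2 fold change of -0.45 (SE 0.0862, adjusted p = 0.0254). Its groups did not overlap, but its other probe set had 0.03 and did not pass. Cenpc1, which links centromeric chromatin to the kinetochore, had a log2 fold change of -0.38 (SE 0.0693, adjusted p = 0.0225), and EAE array 4 lay within the controls. The centromere protein Cenpv was lower on its dimmer probe set (-0.31, SE 0.0639, adjusted p = 0.0312) and at -0.19 on the brighter, which did not pass.

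At the replication origins 3 of 18 probe sets were higher and 1 lower, where 8.26% and 11.4% of all were. Mcm3, a subunit of the helicase, was higher on both of its probe sets. On the brighter it had 7.23, 7.23, 6.97, 7.08 and 7.12 in EAE and 6.50, 6.42 and 6.61 in controls, with a log2 fold change of 0.63 (SE 0.106, adjusted p = 0.0179), and on the dimmer the change was 0.64 (adjusted p = 0.0289). This was the only higher member gene with several probe sets in which all passed. Mcm5, another subunit, rose by 0.55 on the dimmer probe set (SE 0.0770, adjusted p = 0.0112), with EAE arrays from 5.78 to 6.03 and controls from 5.37 to 5.40, and had -0.11 on the brighter probe set, which did not pass. The other helicase subunits did not pass: Mcm2, Mcm4, Mcm6 and Mcm7 had log2 fold changes of 0.11, 0.12, -0.0026 and 0.08. These subunits work as a single complex, and the difference between them was not tested.

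Cdc7, the kinase that switches the loaded helicase on, was lower, with 6.37, 6.18, 5.49, 6.46 and 5.85 in EAE and 6.64, 6.76 and 6.43 in controls. Its log2 fold change was -0.60 (SE 0.136, adjusted p = 0.0398), the groups overlapped through EAE array 4, and the difference within a batch ran from -0.27 in batch 1 to -0.94 in batch 3. With batch as a random block Cdc7 did not pass (adjusted p = 0.0679). The subunits of the origin recognition complex did not pass, with log2 fold changes from -0.38 (Orc5) to 0.05 (the other probe set of Orc5).

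At the replication fork and in nucleotide supply 3 of 33 probe sets were higher and 3 lower, where 8.26% and 11.4% of all were. Top2a, the topoisomerase that untangles replicated chromosomes, had 5.58, 5.44, 4.69, 5.52 and 5.23 in EAE and 4.35, 4.34 and 4.37 in controls. The controls were tight (SD 0.0116) at signals below 6.12, the median of the mean log2 signals of all probe sets. EAE array 3 was far below the other EAE arrays and yet above all controls, and the log2 fold change was 0.89 (SE 0.190, adjusted p = 0.0339). Pcna, the clamp that holds polymerases on DNA, was at 9.54, 9.33, 9.10, 9.36 and 9.49 in EAE and at 8.90, 9.09 and 8.72 in controls. EAE array 3 was barely above the highest control, and the log2 fold change was 0.42 (SE 0.0974, adjusted p = 0.0420).

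Ribonucleotide reductase makes the deoxynucleotides for DNA synthesis, and its exchangeable small subunits changed in opposite directions. Rrm2, the S phase subunit, was at 5.36, 5.53, 5.03, 5.35 and 5.28 in EAE and at 4.67, 4.78 and 4.76 in controls (log2 fold change 0.57, SE 0.113, adjusted p = 0.0276). Rrm2b, the subunit induced by p53 and used outside S phase, was at 7.12, 6.98, 6.71, 6.98 and 6.91 in EAE and at 7.39, 7.66 and 7.05 in controls, where EAE array 1 lay within the controls (log2 fold change -0.43, SE 0.103, adjusted p = 0.0454). Rrm2b kept its direction but did not pass without the batch block (adjusted p = 0.0674) or after a second quantile normalisation. With batch as a random block Rrm2b passed (adjusted p = 0.0349). The large subunit Rrm1 had 0.05 and -0.06 on its probe sets and did not pass. Pole4, a small histone-fold subunit of DNA polymerase epsilon, was lower on both of its probe sets. The brighter had 6.41, 6.53, 6.28, 6.80 and 6.62 in EAE and 7.02, 7.21 and 6.97 in controls, and its log2 fold change of -0.66 (SE 0.0643, adjusted p = 0.00414) was the greatest fall of all members. The other had -0.60 (adjusted p = 0.00893). The remaining polymerase, primase, ligase, Rfc and thymidine kinase probe sets did not pass, with log2 fold changes from -0.15 (Rfc1) to 0.31 (Rfc5).

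In G1 and entry into S phase 1 of 20 probe sets was higher and 1 lower, where 8.26% and 11.4% of all were. Ccnd3, the D cyclin of many blood cells, had 7.27, 7.15, 7.29, 7.41 and 7.47 in EAE and 6.77, 6.86 and 6.97 in controls, with a log2 fold change of 0.37 (SE 0.0747, adjusted p = 0.0288). Its EAE arrays were close to each other, and array 3 was not the lowest. Ccnd1, the D cyclin of many solid tissues, had 0.15 (95% interval -0.11 to 0.41, adjusted p = 0.399) and 0.10 on its probe sets, and neither passed. Cdk2ap1, a protein that binds Cdk2, fell by 0.43 (SE 0.104, adjusted p = 0.0467), with EAE arrays from 8.91 to 9.50 and controls from 9.35 to 9.59. EAE array 5 lay within its controls, and with batch as a random block Cdk2ap1 did not pass (adjusted p = 0.0713). The E2f genes on the array (E2f1, E2f3, E2f5 and E2f8) had log2 fold changes from -0.20 to 0.22, and none passed.

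**Figure D3:**
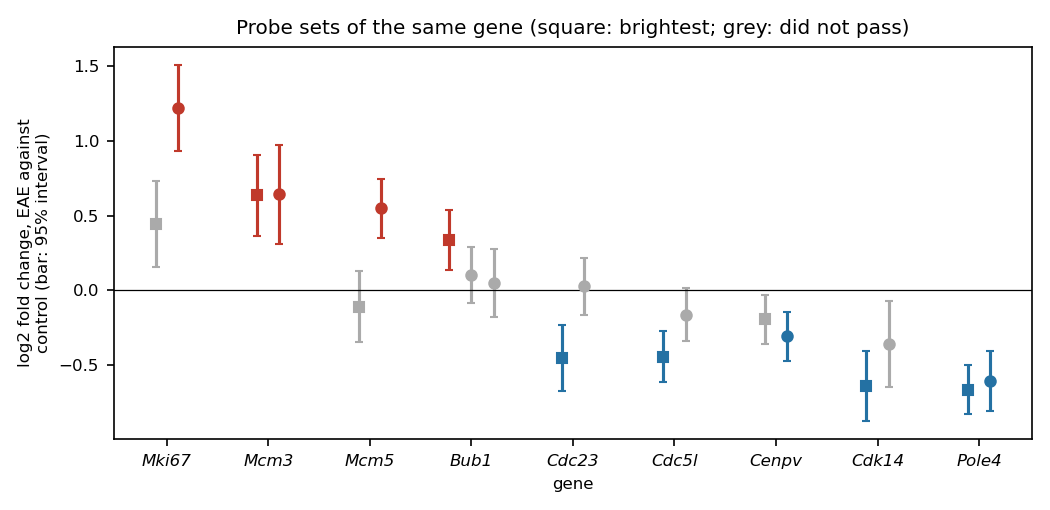
The y axis is the log2 fold change of EAE against control with its 95% interval for every probe set of the 9 member genes that had several probe sets of which any passed. Squares mark the brightest probe set, red and blue mark calls and grey marks probe sets that did not pass. Only Mcm3 and Pole4 passed on all their probe sets, and no gene had calls in both directions.

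Among members known mainly for other roles 0 of 29 probe sets were higher and 5 lower (0 higher and 9 lower at an unadjusted p under 0.05 in limma). Their median log2 fold change was -0.18, and the highest was 0.06. Of all 12422 probe sets 8.26% were higher and 11.4% lower (1498 and 2587 at an unadjusted p under 0.05 in limma). Cdk14, a kinase that acts in Wnt signalling and is abundant in brain, had 8.65, 9.07, 8.46, 8.44 and 9.00 in EAE and 9.34, 9.51 and 9.25 in controls. No EAE array reached the controls, and the log2 fold change was -0.64 (SE 0.0912, adjusted p = 0.0117), with -0.36 on the other probe set, which did not pass. Cdk18, a kinase of the PCTAIRE family, had 6.85, 6.91, 7.05, 7.05 and 7.24 in EAE and 7.38, 7.49 and 7.74 in controls, with a log2 fold change of -0.60 (SE 0.0686, adjusted p = 0.00643). Again the groups did not overlap.

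Cdc123, which assembles the translation factor eIF2, fell by 0.59 (SE 0.0801, adjusted p = 0.0102). Ccng2, a cyclin found in cells that have left the cycle, fell by 0.50 (SE 0.103, adjusted p = 0.0308), and Cdc5l, a part of the spliceosome, by 0.44 (SE 0.0663, adjusted p = 0.0133; 0.0803 with batch as a random block). EAE and control arrays overlapped for Ccng2 and Cdc5l and not for Cdc123. Cdk5, the neuronal kinase, had -0.40 and its activators Cdk5r1 and Cdk5r2 had -0.03 and -0.02, and none of these passed.

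**Figure D4:**
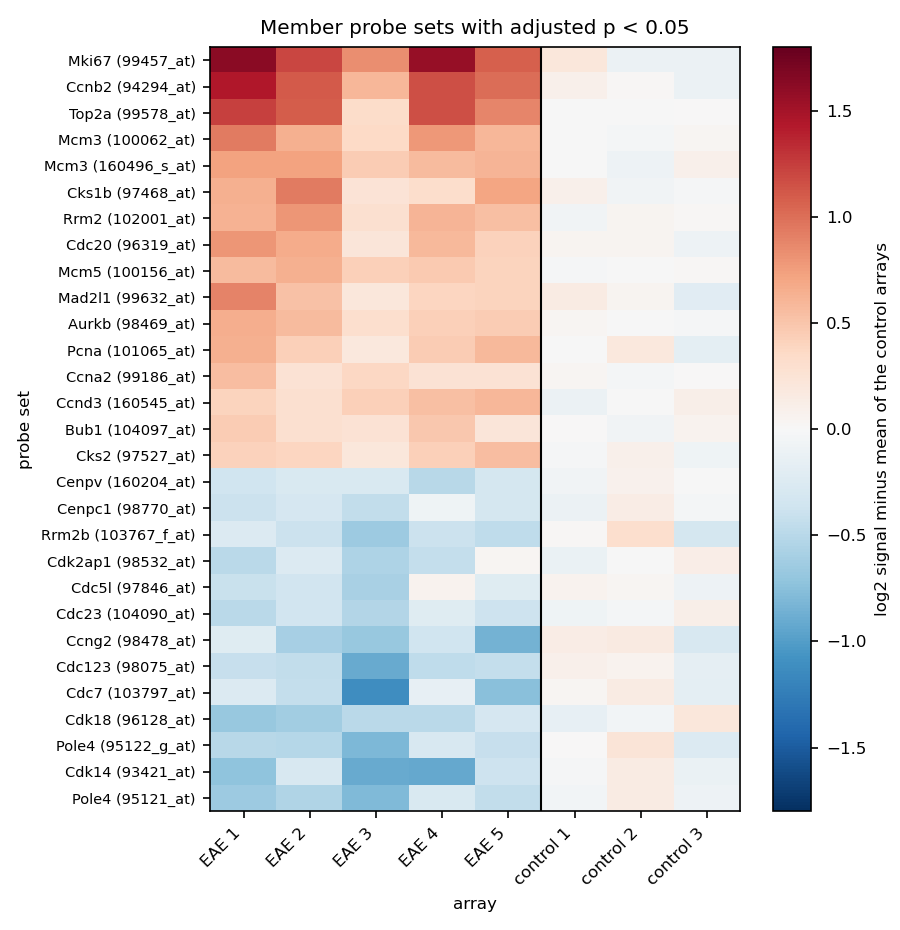
Rows are the 29 member probe sets that passed, ordered by log2 fold change, and columns are the 8 arrays. Colour gives the log2 signal minus the mean of the 3 control arrays, from blue (lower) to red (higher). Among the EAE arrays, array 3 is the palest in 12 of the 16 rows that rose and the darkest in 9 of the 13 that fell.

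The EAE arrays were not alike in these genes. EAE array 1 (day 14) was the highest EAE array for 10 of the 16 higher probe sets, and EAE array 3 (day 17) was the lowest for 12. The mean over the 16, relative to the control mean, was 0.79, 0.66, 0.36, 0.64 and 0.58 on EAE arrays 1 to 5. For the 13 lower probe sets it was -0.45, -0.41, -0.67, -0.35 and -0.40, again lowest on EAE array 3. Over all 137 member probe sets EAE array 3 was the lowest EAE array for 62 (45.3%), against 28.5% of all probe sets on the array, and among all higher probe sets it was the lowest for 26.4%. A single array of day 17 gives no test of the day. Without the arrays of batch 3 the model called 10 member probe sets higher and 2 lower, and 521 and 225 of all probe sets, where it had called 1026 and 1412 with them. Without batch 2 it called 2 and 5 members, and 710 and 571 of all. Without batch 1 it called 6 and 9 members, and 900 and 983 of all. Calls thus fell over the whole array and not in these genes alone.

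**Figure D5:**
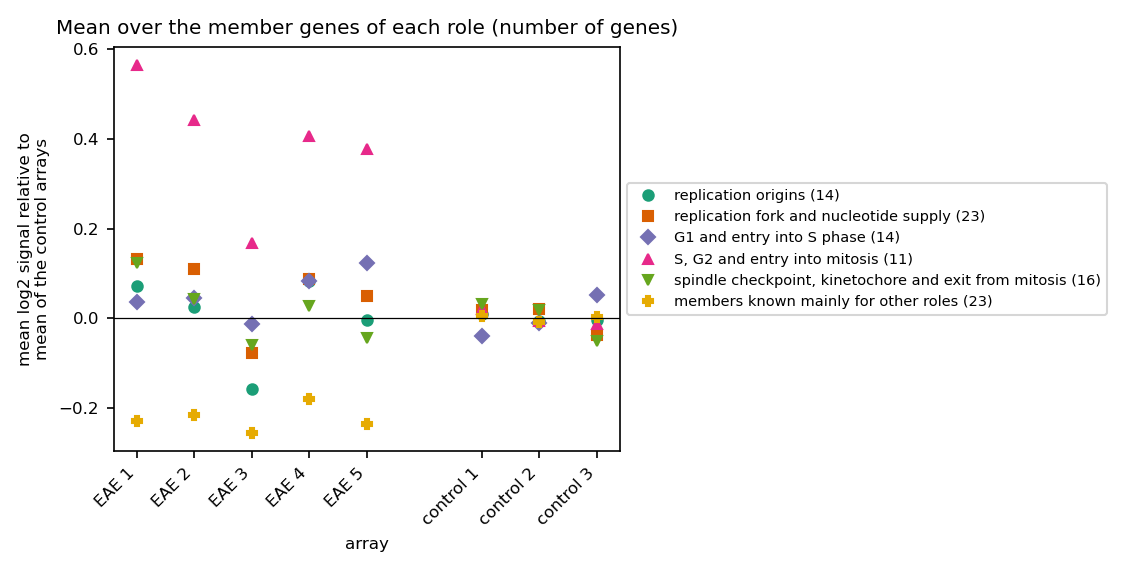
The y axis is the mean log2 signal over the member genes of each role after the control mean is taken away, and the x axis lists the 5 EAE and the 3 control arrays. The genes of S, G2 and entry into mitosis lie at 0.56, 0.44, 0.17, 0.41 and 0.38 on EAE arrays 1 to 5, and the members known mainly for other roles lie between -0.26 and -0.18. All 6 roles are lowest on EAE array 3 among the EAE arrays.

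Genes of the same processes whose symbols fall outside these families were read from a list of 104, of which 75 were on the array. By their brightest probe sets 9 were higher, where 9.19% of all genes were, 5 were lower, where 13.5% of all were, and 61 did not pass. The median of their log2 fold changes was 0.05. Hmgb2, a chromatin protein of proliferating cells, had 7.23, 6.79, 6.85, 6.82 and 7.03 in EAE and 5.64, 5.61 and 5.72 in controls, the greatest rise of the list (log2 fold change 1.30, SE 0.109, adjusted p = 0.00277). EAE array 3 was not the lowest here. Nusap1, a spindle protein, rose by 0.66 (adjusted p = 0.0166), Rbl1, the pocket protein p107 that restrains E2F, by 0.58 (adjusted p = 0.0234), Smc4 of condensin by 0.57 (adjusted p = 0.0266) and Birc5, the survivin subunit of the Aurkb complex, by 0.53 (adjusted p = 0.0252). Stmn1, which takes microtubules apart in dividing cells and is also expressed by neurons, fell by 1.13 (SE 0.153, adjusted p = 0.0101), from 10.91, 10.87 and 11.07 in controls to between 9.41 and 10.14 in EAE.

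Markers of several cell types also differed between EAE and control arrays. In whole cord, fewer cells of a type and less RNA per cell cannot be told apart. Of 16 macrophage and microglia markers 15 were higher and 0 lower, the median log2 fold change was 2.52, and their mean log2 signal was 8.73 to 9.30 in EAE and 6.46 to 6.58 in controls. It was highest on EAE array 3, where the cell cycle genes that rose were lowest. T cell markers were higher for 5 of 12 and lower for 0 (means 5.62 to 5.76 against 5.39 to 5.44), and neutrophil markers for 5 of 10 and 0 (6.53 to 6.92 against 5.50 to 5.57). Of 7 B cell markers 0 passed (1 at an unadjusted p under 0.05), and of 8 endothelial markers 2 were higher and 0 lower (6.43 to 6.72 against 6.23 to 6.38). The endothelial median log2 fold change was -0.05, and the highest was 2.17, for Vwf. At an unadjusted p under 0.05 in limma 2 endothelial markers were higher and 2 lower. Neuron markers were lower for 5 of 9 (8.82 to 9.28 against 9.80 to 9.87) and myelin markers for 2 of 7 (8.66 to 9.16 against 9.37 to 9.62). Among EAE arrays both of these means were highest on EAE array 3, where the mean of the members that fell was lowest. Oligodendrocyte progenitor markers were lower for 2 of 4, with 1 higher (7.66 to 7.85 against 7.87 to 7.98). Astrocyte markers had 1 of 5 higher and 1 lower (9.89 to 10.26 against 10.00 to 10.13). The means of neuron and myelin markers lay above the median of all probe sets (6.12) on all arrays. A list mean above 0 does not tell whether a cell type was present. The part of these cells in the members' changes was not tested.

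RNA quality was read from the control probe sets at the 3′ and 5′ ends of Gapdh and beta-actin. For Gapdh the 3′ minus 5′ log2 difference was 1.46 and 2.07 on EAE arrays 1 and 4, 0.65, 0.46 and 0.78 on EAE arrays 2, 3 and 5, and 0.53 to 0.97 on control arrays. For beta-actin it was 2.35, 1.63, 1.11, 2.79 and 1.83 on EAE arrays 1 to 5 and 2.20, 2.29 and 1.62 on control arrays 1 to 3. By beta-actin EAE array 1 lay near the highest controls, and EAE array 3, on which the mean of the higher members was lowest, had the lowest value of the 8 arrays. The part of RNA quality in these results was not tested. In a fit without the batch block, leaving out EAE arrays 1 and 4 lowered the calls from 22 higher and 14 lower member probe sets to 16 and 11. Of the 16 and 13 members called with the block, 13 and 9 were among these. Over all probe sets the calls without the block fell as well, from 1062 higher and 1278 lower to 992 and 1045.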

How the data were processed

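Total RNA of whole spinal cord was hybridised to 8 MG U74Av2 arrays (5 EAE, 3 control). The authors made log2 values from the scans with RMA in Partek Genomics Suite, including quantile normalisation and a GC adjustment, and deposited them, so that a shift of all transcripts would not show. Versions are not given in the sources used here. Of 12488 probe sets 66 array controls were left out. Gene symbols came from the platform annotation: 10833 probe sets had 1 symbol, 396 several and 1193 none, and 3 of those with several named a gene that fits the rule and were not used. Of the named probe sets 10817 matched the gene table through Entrez identifiers, and 0 symbols differed.

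The linear model held group and batch and was moderated by limma (version 3.58.1, under R 4.3.3) with 2 residual and 3.05 prior degrees of freedom, two-sided, with Benjamini-Hochberg adjustment over all 12422 probe sets and a threshold of 0.05. The methods name the same model, without moderation. The labels give the batch, which equals the replicate number, and this is where the pairing comes from. Deviations from the group means correlated at 0.30, -0.23 and 0.41 within batches 1 to 3. The arrays' number limits the precision. The p-values of this model rest on the spread of the EAE minus control differences between pooled pairs of mice within batches 1 to 3. Moderation adds a prior for this spread that is drawn from all probe sets. The EAE arrays alone in their batches added nothing to the spread, so the p-values do not measure the spread between all pools.

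The members, roles and lists were chosen with earlier results of these data known. Of each role the text names up to 5 genes that passed with the greatest change of the brightest probe set, besides Mki67, Pcna, Top2a, Ccnd1 and Cdk1, and of the related genes up to 6. Mcm5, Cenpv, Cdk5 and other members outside this rule were named after their values were seen. The script was tested on simulated data. Alternatives were the block, moderation, variance prior, centring, quantile normalisation, a filter on dim probe sets, a stricter threshold, the choice of probe set and each array left out. Figures were drawn with matplotlib 3.10.9.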

Additional observations from a re-analysis of the deposited data

Results flagged for a closer look

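For Cdc123, EAE array 3 had a log2 signal of 7.93, while the other 4 EAE arrays lay between 8.37 and 8.42, which is a larger gap to the rest than Dixon's 95% limit for 5 values allows. This was 1 of 40 groups of 5 EAE arrays tested, and chance alone gives about 1 in 20.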

How the results depend on the processing

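All 16 higher and all 13 lower member probe sets kept their direction in every alternative in which they were tested, and no named gene that passed changed direction. Many of these alternatives could not have turned a direction. The 16 were higher and the 13 lower within each of batches 1, 2 and 3, so leaving out a batch keeps the sign. Moderation, the variance prior and the filter on dim probe sets leave the fold change of a probe set as it is. Counts of calls moved more. Leaving out each array in turn gave 2 to 16 higher and 2 to 13 lower member probe sets, and 1 to 9 higher and 0 to 5 lower related genes. Since leaving out an array of batch 1, 2 or 3 removes the whole batch from the fold change, the numbers are the same for the EAE and the control array of a batch, and EAE arrays 4 and 5 changed none. With a model without moderation 0 members were higher and 0 lower, and 0 and 0 related genes (16 and 13 members at an unadjusted p under 0.05), and of all 12422 probe sets 1 was higher and 0 lower, with 2 residual degrees of freedom. At an adjusted p under 0.01 there were 2 and 3 members, and 1 and 1 related genes. Among probe sets brighter than the median of all, 57 members were left, of which 7 were higher and 11 lower, against 714 higher and 1233 lower of all such probe sets. Without the replicate block 22 members were higher and 14 lower, with the 6 named genes Cdc7, Rrm2b, Cdk2ap1, Mad2l1, Cenpc1 and Cdc5l not passing and Mki67 (brighter probe set) and Cdk1 passing, and 2 related genes were lower. With batch as a random block 23 and 16 members were called, and 15 and 3 related genes, while Cdc7, Cdk2ap1 and Cdc5l did not pass. The cause of the changes with the block was not tested. Without the block and without EAE arrays 1 and 4, an alternative chosen after seeing the data, 1 related gene was lower. Centring on the array median gave 13 and 15 members and left Pcna, Cks1b and Bub1 short of the threshold, and a second quantile normalisation gave 15 and 11, without Rrm2b, Cdk2ap1 and Cks1b. A variance prior with an intensity trend gave 19 and 14, without Pcna and Cdk2ap1. Calls over all probe sets moved too, from 1026 higher and 1412 lower in the main fit. They were 1062 and 1278 without the block, and 1205 and 1657 with batch as a random block. Centring gave 970 and 1710 of all, the second quantile normalisation 993 and 1204, and the intensity trend 1082 and 1365.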
